A study of Mus musculus with 10 samples.

Results

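The step from E15.5 to E17 in the developing mouse neocortex was described from 4 libraries, 2 at each of these embryonic stages, out of 10 libraries in the series. All came from whole frozen neocortex of CD1 wild type mice, an outbred stock; E15.5 and E17 are days of gestation, and the remaining 6 libraries cover E12.5, E14 and the day of birth (P0). No treatment or engineered allele is given for any group, the series calls the 2 libraries of a stage biological duplicates, and the labels give no sex, litter or pooling. Polyadenylated RNA was extracted from cleared tissue lysates, and the deposited values are TPM, each gene's share of all transcripts on a scale fixed for every library. The table lists 6147 genes, and the 6048 that averaged 1 TPM or more over the 10 libraries were compared. The listed genes held between 68.9% and 70.9% of all TPM in the 4 libraries. The sources used here give no number of reads, so the precision behind a value rests on the spread between libraries.

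In the late embryonic neocortex, radial glia line the ventricle, divide, and give rise to neurons either directly or through intermediate progenitors marked by Eomes. Deep layer neurons are born first and upper layer neurons later, and near the end of gestation neuron production slows while radial glia begin to form astrocytes. Neurons that have settled extend axons and start to build synapses, which calls for vesicle release proteins, receptors, scaffolds, ion channels and pumps. Of 11 neocortex genes, 8 are in the table and all 8 were present in all 4 libraries. Presence alone does not check the tissue label, because genes of nearby tissues were present too. Those of hippocampus summed to 1029 and 1053 TPM at E15.5, and those of choroid plexus to 93.9 and 92.1 TPM.

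Changes are differences in log2(TPM + 1), E17 minus E15.5, each with its standard error (SE) from limma, in which all 5 stages shared one estimate of the spread. A gene was called when its Benjamini-Hochberg adjusted p over all 6048 genes was under 0.05. A called gene was said to hold when it was also called, in the same direction, with E17 replicate 1 as the only E17 library and again with E17 replicate 2 as the only one. In those fits the lone library was assumed to vary like the other stages. The 2 E17 libraries differed more: the SD across genes of their difference was 0.285, against 0.0880 at E15.5. The spread in those fits was thus too small for E17, and their calls are lenient. Both fits also used the same E15.5 libraries, so holding is a lenient filter and not independent support. The spread of the main fit, shared over all 5 stages, also tends to be too small for E17. Its SEs and adjusted p are therefore lenient too.

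Of 6048 genes, 1514 (25.0%) were called: 871 (14.4%) were higher at E17 and 643 (10.6%) lower. In each of the 1514, both E17 libraries lay outside the range of the E15.5 libraries. This is not separate support for the calls, and the share over all 6048 genes is not given here. With E17 replicate 1 alone 3164 genes (52.3%) were called, 2118 (35.0%) higher and 1046 (17.3%) lower. With E17 replicate 2 alone 1792 (29.6%) were called, 736 (12.2%) higher and 1056 (17.5%) lower. The genes that held numbered 1151 (19.0%), 637 (10.5%) higher and 514 (8.50%) lower, which is 76.0% of the called genes. Of the 363 called genes that did not hold, 302 missed the threshold with replicate 2 alone and 61 with replicate 1 alone. The count of calls also fell when either E15.5 library was left out, and every gene still called then held. Holding adds little there. A lone E17 library leaves the large E17 difference out of the spread, so its fit is more lenient than the fit with both.

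The 2 E17 libraries differed from each other more than the libraries of any other stage. The SD across genes of replicate 1 minus replicate 2 was 0.285 at E17 and 0.0880 at E15.5 (log2 scale), and 709 genes (11.7%) differed by more than 0.5 at E17 against 2 genes at E15.5. The difference at E17 ran with transcript length: its median was -0.05 for the shortest quintile of transcripts, with a median length of 1368 bases, and 0.37 for the longest quintile, with a median of 7338 bases. At E15.5 the same medians were 0.01 and 0.01. Across genes, which are not independent replicates, Spearman's rho of the E17 difference was 0.52 with transcript length and 0.35 with GC content. The rho with GC content was larger in size at E12.5 (-0.54), E14 (0.48) and P0 (0.51). With transcript length it was -0.13 at E12.5, -0.27 at E14 and -0.45 at P0. At E15.5 it was 0.03 with length and -0.01 with GC content. In the shortest quintile, 69 genes held as higher and 149 as lower. In the longest quintile, 178 held as higher and 24 as lower. After a correction for length and GC content, 1447 genes held, 870 higher and 577 lower.

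**Figure D1:**
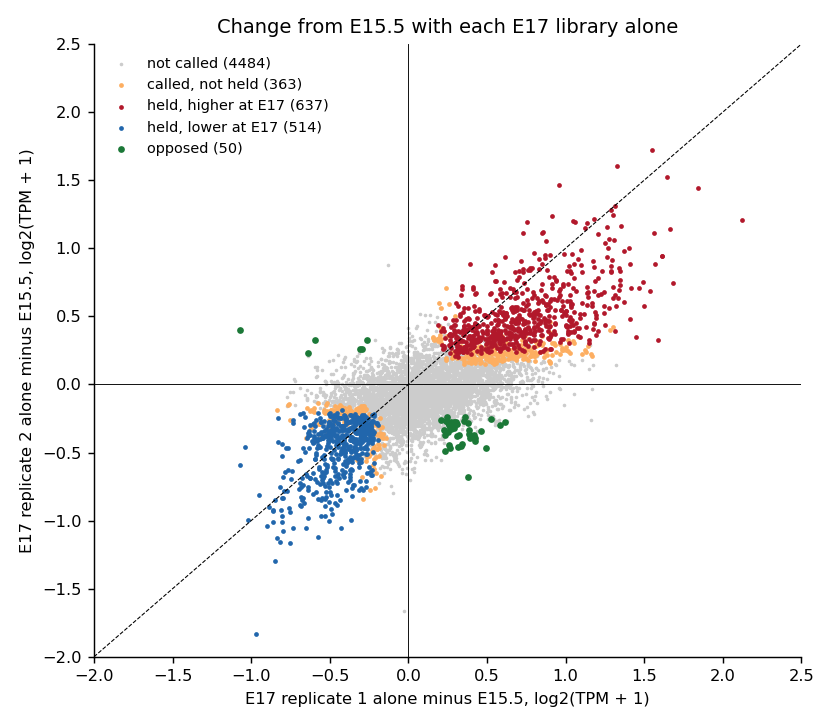
Each point is 1 of 6048 genes, with its change from E15.5 on the log2(TPM + 1) scale when E17 replicate 1 is the only E17 library (horizontal axis) and when replicate 2 is (vertical axis); the dashed line marks equal changes and 1 gene, Lars2, lies outside the axes. The 637 genes that held as higher lie mostly below the dashed line, and 50 genes called in opposite directions lie off to both sides.

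**Figure D2:**
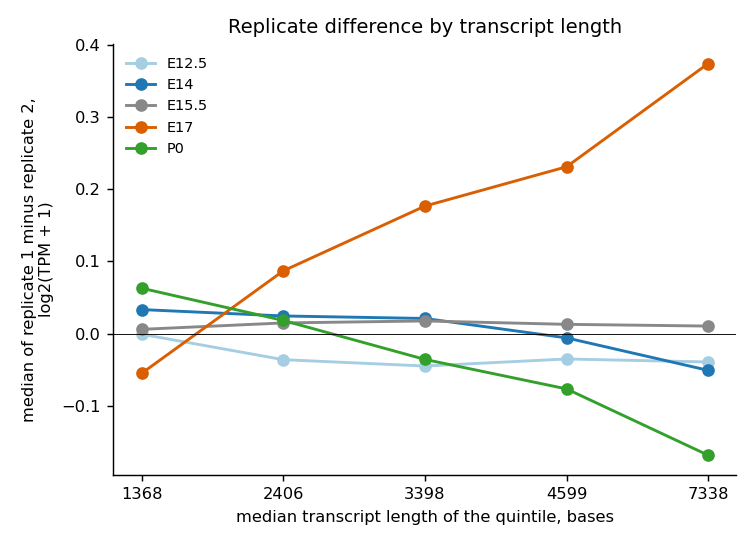
Median difference between replicate 1 and replicate 2 of each stage, in log2(TPM + 1), for quintiles of the genes by transcript length (median length in bases on the horizontal axis). At E17 the median climbs from -0.05 to 0.37, while at E15.5 it stays between 0.01 and 0.02. At P0 it falls from 0.06 in the shortest quintile to -0.17 in the longest.

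Of the 12 largest falls that held among genes averaging at least 10 TPM, Ccnb1, Nusap1 and Ect2 act in mitosis, Mcm2, Mcm3 and Mcm5 are subunits of the helicase that unwinds DNA at replication origins, and Uhrf1 carries DNA methylation through replication. Ccnb1, cyclin B1, which drives entry into mitosis, was at 49.2 and 44.8 TPM at E15.5 and 25.9 and 20.9 TPM at E17. Both E17 values were well below both E15.5 values, and the change was -0.98 ± 0.10 (SE; adjusted p = 0.000188). Mcm2 was at 19.9 and 18.7 TPM at E15.5 and 11.04 and 8.06 TPM at E17 and changed by -0.96 ± 0.14 (SE; adjusted p = 0.000987). Uhrf1 was at 21.1 and 21.7 TPM at E15.5 and 10.99 and 9.86 TPM at E17 and changed by -0.97 ± 0.12 (SE; adjusted p = 0.000535). The 12 were chosen among genes that held and whose E17 and E15.5 libraries did not overlap, so neither trait is separate support. Ccnb1 changed by -0.84 with replicate 1 alone and by -1.13 with replicate 2 alone. Nusap1 (-0.94), Mcm5 (-0.91), Mcm3 (-0.89) and Ect2 (-0.88) followed.

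Other large falls were in Kpna2, an importin that carries proteins into the nucleus, at 44.4 and 42.8 TPM at E15.5 and 20.98 and 21.3 TPM at E17 and a change of -1.01 ± 0.09 (SE; adjusted p = 0.000103). Cdca5, sororin, which keeps sister chromatids together, was at 19.9 and 20.4 TPM at E15.5 and 11.01 and 8.49 TPM at E17 and changed by -0.99. Hmgb2, a chromatin protein abundant in dividing cells, was at 386 and 357 TPM at E15.5 and 201 and 198 TPM at E17 and changed by -0.89 ± 0.08 (SE; adjusted p = 0.000141). In Hmgb2 and Kpna2 the E17 libraries were nearly equal, and in Grb10 they were further apart. Grb10, an imprinted adaptor that dampens growth factor signalling, had the largest of these falls, at 95.3 and 90.6 TPM at E15.5 and 51.3 and 37.2 TPM at E17 and a change of -1.07 ± 0.12 (SE; adjusted p = 0.000298). Gsta4, a glutathione transferase, completed the 12, at 22.8 and 18.7 TPM at E15.5 and 10.2 and 11.3 TPM at E17 and a change of -0.88. Gmnn, geminin, which blocks repeat licensing of replication origins, fell by more, at 25.8 and 25.1 TPM at E15.5 and 13.5 and 12.9 TPM at E17 and a change of -0.89 ± 0.09 (SE; adjusted p = 0.000188); it held, but names beginning with Gm were left out of the 12, and it is given here after its values were seen.

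Over the list of mitosis genes, 43 were tested, none was called higher and 31 were called lower, of which 30 held, beside 8.50% of all genes that held as lower. The median change of the list was -0.60, against 0.01 over all genes, and it was -0.48 with E17 replicate 1 alone and -0.67 with replicate 2 alone. The examples span the stages of division: Bub1b of the spindle checkpoint changed by -0.94, the spindle factor Tpx2 by -0.86, the kinase Cdk1 by -0.77, the motor Kif11 by -0.73 and the topoisomerase Top2a by -0.70. Summed over the 43 genes in the table, TPM were 1194 and 1111 at E15.5 and 786 and 681 at E17. Of 44 DNA replication genes, 35 were called lower and 32 held, with a median change of -0.46 and none called higher. Besides the helicase subunits, these held for the thymidylate enzyme Tyms (-0.79), the salvage kinase Tk1 (-0.75), the ribonucleotide reductase subunit Rrm1 (-0.62), the clamp loader Rfc4 (-0.74) and the flap nuclease Fen1 (-0.62). When E15.5 replicate 1 was left out, 20 mitosis and 18 replication genes were called lower, and when replicate 2 was, the replication count was 20. In whole tissue, fewer dividing cells and less of these RNAs in each cell cannot be told apart.

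Because mitosis and replication genes moved together, their promoters were searched for short motifs known from cell cycle promoters, and 4 are printed to show what the shared letters look like. The windows run from 250 bases before to 30 bases after the RefSeq gene start, in the orientation of the gene, on GRCm38.p6. Capitals mark matches, on either strand, to CCAAT (the box bound by NF-Y), TTTGAA (the CHR element of genes of late cell cycle) and TTTCCCGC or TTTGGCGC (forms of the E2F site); a match on the opposite strand appears as its reverse complement. Ect2, a guanine exchange factor of cytokinesis, is on the minus strand at chr3:27153849-27154128, Mcm2 on the minus strand at chr6:88898751-88899030, Mcm3 on the minus strand at chr1:20820283-20820562 and Nusap1, a microtubule bundling protein of the spindle, on the plus strand at chr2:119618048-119618327.
Ect2: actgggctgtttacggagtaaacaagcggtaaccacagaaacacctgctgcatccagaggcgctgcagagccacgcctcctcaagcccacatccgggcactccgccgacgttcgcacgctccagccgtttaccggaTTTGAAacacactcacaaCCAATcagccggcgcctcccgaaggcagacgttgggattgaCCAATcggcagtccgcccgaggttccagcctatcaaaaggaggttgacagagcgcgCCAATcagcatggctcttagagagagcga
Mcm2: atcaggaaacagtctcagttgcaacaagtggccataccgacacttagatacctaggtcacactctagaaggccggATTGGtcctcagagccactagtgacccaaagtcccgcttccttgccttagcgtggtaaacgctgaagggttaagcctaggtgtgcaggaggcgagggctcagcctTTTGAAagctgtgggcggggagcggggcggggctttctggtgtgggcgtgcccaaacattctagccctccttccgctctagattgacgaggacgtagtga
Mcm3: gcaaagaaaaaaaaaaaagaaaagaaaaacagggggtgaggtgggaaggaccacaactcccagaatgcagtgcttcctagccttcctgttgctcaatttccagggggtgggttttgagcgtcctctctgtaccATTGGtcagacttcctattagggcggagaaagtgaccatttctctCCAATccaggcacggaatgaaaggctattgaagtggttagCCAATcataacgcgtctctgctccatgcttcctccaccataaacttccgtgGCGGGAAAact
Nusap1: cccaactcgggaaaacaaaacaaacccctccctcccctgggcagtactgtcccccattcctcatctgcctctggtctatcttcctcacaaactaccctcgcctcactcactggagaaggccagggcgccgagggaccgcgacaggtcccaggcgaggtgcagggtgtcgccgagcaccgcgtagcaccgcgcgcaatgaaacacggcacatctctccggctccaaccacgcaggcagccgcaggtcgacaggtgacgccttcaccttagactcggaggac

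The Ect2 window holds 3 CCAAT matches and 1 TTTGAA match, and the Mcm3 window holds 3 CCAAT matches and 1 match to an E2F form. The Mcm2 window holds 1 CCAAT match and 1 TTTGAA match, and none of these letters occurs in the Nusap1 window. Among genes with a window in the table, TTTGAA was in 26 of 37 mitosis genes (70.3%) and 6 of 35 replication genes (17.1%). It was in 635 of 4769 genes tested (13.3%) and in 17.2% of all 32851 windows. Of the members that held as lower, 16 of 25 mitosis genes (64.0%) and 3 of 27 replication genes (11.1%) had it. Over all genes, it was in 18.4% of those that held as lower and 15.0% of those that held as higher. CCAAT was in the windows of 70.3% of mitosis genes and 65.7% of 35 replication genes, against 41.9% of genes tested and 36.1% of all windows. Either E2F form was in 28.6% of replication genes and 5.41% of mitosis genes, against 3.69% of genes tested and 1.46% of all windows. Of the members that held, CCAAT was in 80.0% of mitosis and 63.0% of replication genes, and either E2F form in 0.00% and 22.2%. Over all genes that held as lower or higher, CCAAT was in 55.4% and 40.1%, and either E2F form in 6.92% and 2.79%. Whether any motif goes with the falls was not tested. These counts describe letters in a window, with no test, and a gene with several annotated starts counted once if any of its windows held the motif. No motif contains another, and they were chosen after the falls of these genes were known.

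**Figure D3:**
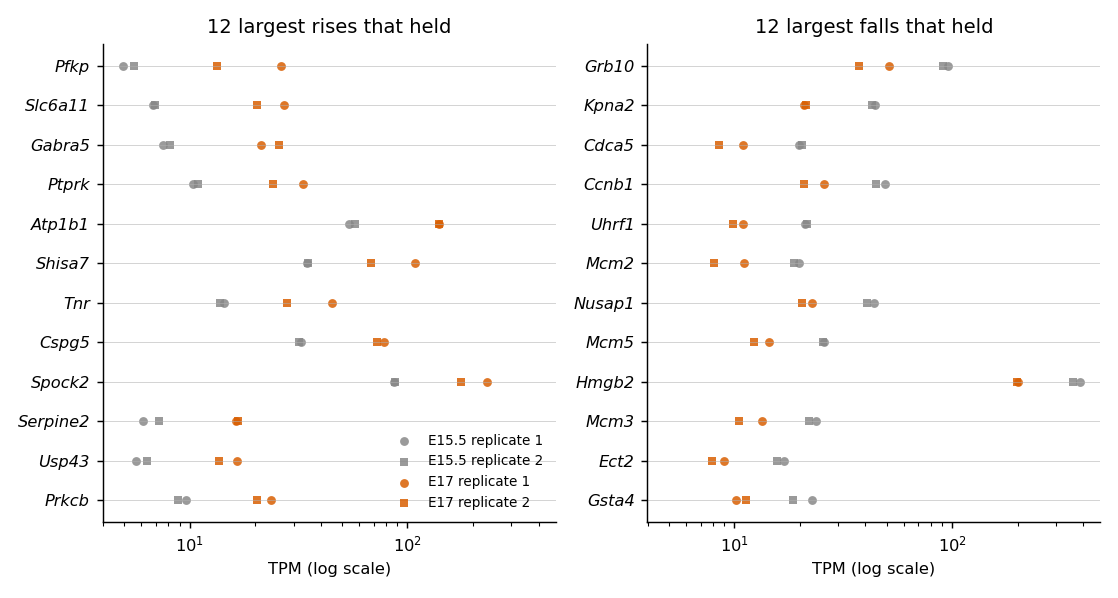
TPM on a log axis in the 2 E15.5 (grey) and 2 E17 (orange) libraries for the 12 largest rises and 12 largest falls that held, circles for replicate 1 and squares for replicate 2. The genes were chosen so that both E17 libraries lie on the same side of both E15.5 libraries. The E17 libraries are furthest apart, as a ratio, in Pfkp.

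Genes that mark the progenitors themselves moved both ways. Of 21 radial glia genes, 8 held as lower and 3 as higher, beside 8.50% and 10.5% of all genes. The 3 rises are thus near the share over all genes. Those that fell included the intermediate filaments Vim, at 321 and 309 TPM at E15.5 and 197 and 189 TPM at E17 (-0.70 ± 0.08 SE, adjusted p = 0.000273), and Nes (-0.57), the transcription factors Pax6 (-0.63), Sox2 (-0.34), Sox3 (-0.75) and Sox9 (-0.33), and the serine synthesis enzymes Psat1 (-0.65) and Phgdh (-0.56). Those that rose were the matrix protein Tnc (0.97), the phosphatase receptor Ptprz1, at 46.1 and 45.3 TPM at E15.5 and 80.3 and 64.7 TPM at E17 (0.65 ± 0.11 SE, adjusted p = 0.0021), and the glutamate transporter Slc1a3 (0.57), which astrocytes also express. Of the falls, 5 were called without E15.5 replicate 1. Eomes, the factor that marks intermediate progenitors, was at 99.7 and 99.6 TPM at E15.5 and 63.1 and 47.5 TPM at E17, so that both E17 libraries lay below both E15.5 libraries, and it changed by -0.85 ± 0.11 (SE; adjusted p = 0.00063). Insm1, a factor of the same cells, changed by -0.45 and held, and Elavl4, also in that list, had a change of -0.24 and was not called. Without E15.5 replicate 1, and likewise without replicate 2, 1 of these 2 falls was called.

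The lowest change of all genes tested was in Hmga2, a chromatin protein of early progenitors whose level falls with age. It was at 9.50 and 7.37 TPM at E15.5 and 3.79 and 1.63 TPM at E17, below the 10 TPM used to choose the largest changes, and changed by -1.40 ± 0.22 (SE; adjusted p = 0.00146). Both E17 libraries were below both E15.5 libraries, replicate 2 the lower. In the list of 9 genes of developmental timing and RNA binding, which includes Hmga2, 3 held as lower, beside 8.50% of all genes. Besides Hmga2 these were Msi2 (-0.44) and Igf2bp3 (-0.39), while Igf2bp2 (-0.51) was called and did not hold. Of the 9, 1 or 2 were called lower without E15.5 replicate 1 or 2. Igf2bp1 was at 27.8 and 26.3 TPM at E15.5 and 29.2 and 18.1 TPM at E17: its change was 0.11 with replicate 1 alone and -0.55 with replicate 2 alone, and it was not called (adjusted p = 0.356).

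Of the 8 neocortex genes, 4 were called lower and 3 held, beside 10.6% and 8.50% of all genes. None was called higher, and the median change was -0.34. The 3 that held were Eomes, Pax6 and Tbr1, each also counted in another list here. Layer genes also moved unevenly. Of 8 deep layer genes, 4 held as lower, beside 8.50% of all genes. These were Sox5 (-0.64), Nfib (-0.63), Tbr1 (-0.45) and Nfia (-0.43), transcription factors of early born neurons. Nfia and Nfib are also found in progenitors. Tbr1 was at 138 and 143 TPM at E15.5 and 113 and 93.8 TPM at E17, lower in both E17 libraries. Ldb2, a cofactor of LIM factors, held as higher, at 69.3 and 72.6 TPM at E15.5 and 97.3 and 104 TPM at E17 and a change of 0.50 ± 0.09 (SE; adjusted p = 0.00371). Without E15.5 replicate 1, Ldb2 was not called and 1 of the deep layer falls was. Without replicate 2, 2 of the falls were called. Of 7 upper layer genes 1 held, Mef2c, a factor of maturing neurons that was higher, at 298 and 325 TPM at E15.5 and 446 and 493 TPM at E17 and a change of 0.59 ± 0.12 (SE; adjusted p = 0.0046). Plxnd1 (0.56) was called and did not hold, and the lowest of the list, Pou3f2, had a change of 0.03 and was not called. Of these 7, none was called higher without E15.5 replicate 1, so that Mef2c lost its call, and 1 was without replicate 2; over all genes 10.5% held as higher.

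The 12 largest rises that held among genes averaging at least 10 TPM were led by Pfkp (1.66), an enzyme of glycolysis, and Slc6a11 (1.64), a transporter of astrocytes. Among the others, Gabra5 is a GABA A receptor subunit, Atp1b1 the beta subunit of the sodium pump, Shisa7 an auxiliary protein of synaptic receptors and Prkcb a protein kinase C. Tnr, Cspg5 and Spock2 are brain matrix proteins, and Serpine2 is a secreted protease inhibitor. Atp1b1 was at 53.7 and 57.6 TPM at E15.5 and 139.6 and 139 TPM at E17, 2.51-fold higher in mean TPM, and changed by 1.31 ± 0.09 (SE; adjusted p = 2.75e-05). Its E17 libraries were nearly equal, and its change was 1.31 with replicate 1 alone and 1.31 with replicate 2 alone. Gabra5 was at 7.53 and 8.16 TPM at E15.5 and 21.2 and 25.9 TPM at E17 and changed by 1.46 ± 0.12 (SE; adjusted p = 8.85e-05), and it was one of 2 genes of the 12 in which E17 replicate 2 was the higher library, with Serpine2 (6.12 and 7.22 TPM at E15.5 and 16.3 and 16.7 TPM at E17).

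In the others, E17 replicate 1 was higher or nearly equal. Shisa7 was at 34.6 and 34.9 TPM at E15.5 and 108 and 67.8 TPM at E17 and changed by 1.28 ± 0.17 (SE; adjusted p = 0.000686), and Tnr was at 14.4 and 13.8 TPM at E15.5 and 45.02 and 27.9 TPM at E17 and changed by 1.28 ± 0.19 (SE; adjusted p = 0.000987). In both, replicate 2 alone gave a change of 0.94 and replicate 1 alone 1.61. Cspg5 (1.21 ± 0.10 SE, adjusted p = 9.24e-05) and Spock2 (1.202 ± 0.11 SE, adjusted p = 0.000121) followed, and Prkcb, at 9.64 and 8.85 TPM at E15.5 and 23.7 and 20.4 TPM at E17, changed by 1.17. Ptprk, a receptor phosphatase of cell contacts, was at 10.4 and 10.9 TPM at E15.5 and 33.2 and 24.1 TPM at E17 and changed by 1.34 ± 0.13 (SE; adjusted p = 0.000172). Usp43, a ubiquitin protease, was at 5.70 and 6.39 TPM at E15.5 and 16.4 and 13.6 TPM at E17 and changed by 1.18. None of the 24 genes among the largest rises and falls lost its call when any single library was left out. For the E17 libraries, this was part of how the genes were chosen.

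At the presynapse, 44 genes of vesicle release were tested: 30 were called higher, 22 held, and none was called lower, beside 10.5% of all genes that held as higher. The median change was 0.38. The calcium sensor Syt1 was at 97.97 and 100.1 TPM at E15.5 and 202 and 182 TPM at E17, about 1.94-fold higher at E17, and changed by 0.95 ± 0.08 (SE; adjusted p = 0.000103). Other vesicle and release proteins that held were Syt4 (0.88), Syngr3 (0.85), Rims1 (0.81), Rab3b (0.74), Sv2b (0.73) and Stx1a (0.66), and the large active zone protein Pclo was at 6.91 and 6.77 TPM at E15.5 and 17.6 and 10.3 TPM at E17 (0.88). The lowest of the list was the endocytic protein Sh3gl2, at -0.13 and not called. Of the 44, 8 were called without E15.5 replicate 1 and 10 without replicate 2.

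At the postsynapse, 21 of 33 receptor and scaffold genes were called higher and 17 held, beside 10.5% of all genes that held as higher. The median change was 0.55 and none was called lower. The glutamate receptor genes Grm5, at 12.99 and 12.9 TPM at E15.5 and 28.8 and 26.6 TPM at E17 (1.04 ± 0.10 SE, adjusted p = 0.000162), and Gria2 (0.96) held, as did the scaffolds Dlg2 (0.97), Shank2 (0.96) and Shank1 (0.90). The GABA A receptor subunit Gabra3 (0.82) rose as well. The kinase subunits Camk2a (0.78) and Camk2b (0.59) held. Grin2b, the NMDA receptor subunit of the immature brain, was at 62.7 and 63.1 TPM at E15.5 and 191 and 79.2 TPM at E17, so that replicate 1 was far above replicate 2; it held, but its change was 1.59 with replicate 1 alone and 0.33 with replicate 2 alone. The lowest of the list was Homer3, at -0.18 and not called, and without E15.5 replicate 1 or replicate 2 the count of calls was 12 or 13.

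Of 23 ion channel and pump genes, 18 were called higher and 15 held, beside 10.5% of all genes that held as higher. None was called lower and the median change was 0.73. Slc12a5, the chloride exporter KCC2, was at 2.97 and 2.82 TPM at E15.5 and 8.87 and 6.04 TPM at E17 and changed by 1.10 ± 0.16 (SE; adjusted p = 0.00106). Both E17 libraries lay well above the E15.5 pair, replicate 1 the higher. The calcium pumps Atp2b1, Atp2b2 and Atp2b3 changed by 0.65, 0.80 and 0.81, the sodium channel Scn3a by 0.76, the potassium channel Kcnq5 by 0.77 and the calcium channel subunits Cacna1e and Cacna2d1 by 0.73 and 0.77. The lowest of the list, the pump subunit Atp1b3, had a change of 0.08 and was not called.

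Of 31 axon guidance ligands and receptors, 14 were called higher and 9 held, beside 14.4% and 10.5% of all genes. The median change was 0.43, and 0.28 once corrected for length and GC content. With E17 replicate 1 alone 30 were called higher, beside 35.0% of all genes, and the median was 0.75. With replicate 2 alone 9 were called higher, beside 12.2% of all genes, 1 lower, and the median was 0.14. Plxna4, a semaphorin receptor, was at 45.8 and 47.2 TPM at E15.5 and 133 and 69.7 TPM at E17 and changed by 1.04 ± 0.21 (SE; adjusted p = 0.0061), and its E17 libraries differed from each other by more than replicate 2 differed from E15.5. Sema3c was at 30.5 and 31.1 TPM at E15.5 and 47.2 and 49.5 TPM at E17 and changed by 0.63 ± 0.10 (SE; adjusted p = 0.00134), with E17 libraries close together. Sema7a (0.76), Efnb3 (0.64), Efna5 (0.61), Robo2 (0.59), Neo1 (0.60) and Plxnc1 (0.64) also held, and the lowest of the list, Efnb1, had a change of -0.06 and was not called. Of the 31, 5 were called without E15.5 replicate 1 and 8 without replicate 2.

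Of 17 growth cone membrane genes, 10 held as higher and none as lower, beside 10.5% and 8.50% of all genes. The median change was 0.39. The adhesion proteins Cntn1, at 13.3 and 14.4 TPM at E15.5 and 26.002 and 27.7 TPM at E17 (0.91 ± 0.11 SE, adjusted p = 0.000359), L1cam (0.81), Ncam1 (0.72) and Nrcam (0.62) were the largest together with Ncam2 (0.67). Gap43, the growth cone protein used as a mark of axon extension, was at 518 and 551 TPM at E15.5 and 658 and 809 TPM at E17 and changed by 0.45 ± 0.10 (SE; adjusted p = 0.0107), with replicate 2 the higher of the E17 pair. Marcks was lowest, at -0.20, and not called. Of 24 neuronal microtubule proteins and stathmins, 7 held as higher, among them Dclk2 (0.54), Map6 (0.45), Stmn2 (0.31) and Stmn4 (0.32), and with the replicate number as a block 2 held. Of 10 tubulins, 3 held as lower, Tuba1c (-0.68), Tubb4b (-0.42) and Tuba1b (-0.34), while the neuronal tubulin Tubb3 was at 1755 and 1837 TPM at E15.5 and 1560.4 and 1697 TPM at E17 and was not called (adjusted p = 0.313). Leaving out E15.5 replicate 1 or 2 left 4 or 3 growth cone genes and 0 or 1 microtubule proteins called higher, and 0 or 2 tubulins called lower.

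**Figure D4:**
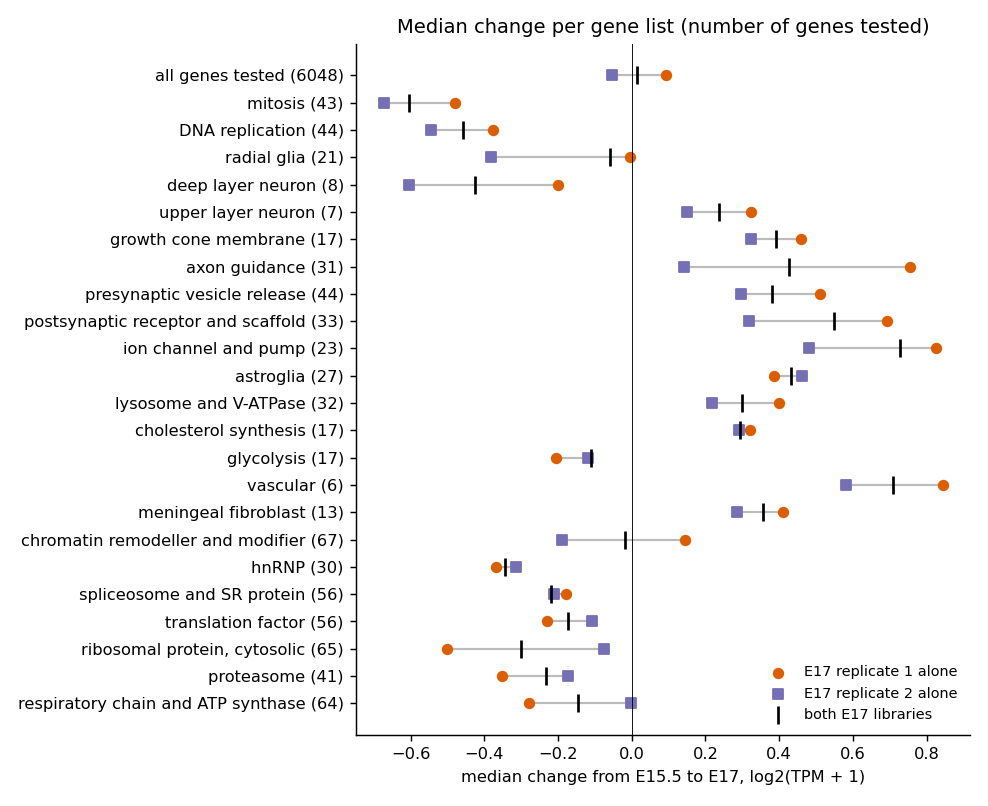
Median change in log2(TPM + 1) of each gene list from E15.5 to E17 with both E17 libraries (bar), replicate 1 alone (circle) and replicate 2 alone (square), with the number of genes tested in parentheses. Mitosis and replication lie at -0.60 and -0.46 and channels at 0.73, and the distance between circle and square is widest for axon guidance, at 0.75 and 0.14.

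Of 27 astroglial genes tested, 15 held as higher and 2 as lower, beside 10.5% and 8.50% of all genes. The median change was 0.43, with 0.39 from replicate 1 alone and 0.46 from replicate 2 alone. Slc6a11, the GABA transporter GAT3 of astrocytes, was at 6.82 and 6.91 TPM at E15.5 and 27.2 and 20.4 TPM at E17, 3.47-fold higher in mean TPM, and changed by 1.64 ± 0.15 (SE; adjusted p = 0.000121). Sparcl1, a secreted protein of astrocytes, was at 33.7 and 35.1 TPM at E15.5 and 69.4 and 67.8 TPM at E17 and changed by 0.98 ± 0.08 (SE; adjusted p = 8.85e-05), with E17 libraries nearly equal. Apoe, the lipid carrier, was at 22.02 and 24.2 TPM at E15.5 and 42.3 and 43.4 TPM at E17 and changed by 0.86 ± 0.12 (SE; adjusted p = 0.000654). The neurotrophin receptor Ntrk2 (0.91), the glutamate transporter Slc1a2 (0.81), clusterin, Clu (0.76), and the matrix protein Bcan (0.65) held. Gfap and Aldh1l1, filament and folate enzyme of mature astrocytes, were low, at 1.03 and 1.25 TPM at E15.5 and 1.79 and 1.98 TPM at E17 for Gfap, and both held (0.43 and 0.50). Aldoc, an aldolase of astrocytes, had the lowest change of the list, at 145 and 144 TPM at E15.5 and 114 and 99.2 TPM at E17 (-0.43 ± 0.09 SE, adjusted p = 0.00737). Without E15.5 replicate 1, and likewise without replicate 2, 12 of the 27 were called higher and none lower, so that Aldoc lost its call.

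Sparc, Apoe and other secreted proteins are also made in vessels and meninges, so the markers of these tissues stand here. Of 6 vascular genes tested, 5 held as higher, beside 10.5% of all genes. They were Col4a1, Col4a2 (1.14), Vtn (0.73), Cdh5 (0.69) and Lama4 (0.56). Col4a1 was at 3.56 and 3.89 TPM at E15.5 and 10.3 and 8.03 TPM at E17 (1.10 ± 0.13 SE, adjusted p = 0.000306). The 8 vascular genes in the table summed to 12.47 and 12.51 TPM at E15.5 and to 33.1 and 24.3 TPM at E17. Of 13 meningeal genes, 6 were called higher and 5 held, beside 14.4% and 10.5% of all genes. Those that held included Ogn, at 0.829 and 0.747 TPM at E15.5 and 2.01 and 3.10 TPM at E17. The sum over the 13 was 26.8 and 24.04 TPM at E15.5 and 38.8 and 33.4 TPM at E17. Under quantile normalization 3 of the meningeal genes held, and without E15.5 replicate 1 or replicate 2, 2 were called. Of 2 microglial genes tested, 1 held as higher. C1qb had a change of 0.35 and was not called, and none of 3 choroid plexus, 5 erythroid or 1 oligodendrocyte genes tested was called. The part of these cells in the rise of matrix and astroglial genes was not tested.

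Metabolic genes divided within pathways. Pfkp, a phosphofructokinase isoform first known from platelets and also made in brain, had the largest rise that held, at 4.96 and 5.53 TPM at E15.5 and 26.2 and 13.4 TPM at E17, 3.77-fold higher in mean TPM, with a change of 1.66 ± 0.23 (SE; adjusted p = 0.00085). Replicate 1 was far above replicate 2, and the change was 2.12 with replicate 1 alone and 1.21 with replicate 2 alone. Of 17 glycolysis genes, 3 held as higher and 6 as lower, beside 10.5% and 8.50% of all genes. Hk1, the hexokinase of brain, rose (0.39), as did the neuronal glucose transporter Slc2a3 (0.50), while Hk2, the hexokinase of growing cells, fell, at 5.02 and 4.80 TPM at E15.5 and 3.02 and 2.03 TPM at E17 (-0.76 ± 0.14 SE, adjusted p = 0.00342). Pkm, pyruvate kinase, was at 428 and 424 TPM at E15.5 and 307 and 304 TPM at E17 and changed by -0.48 ± 0.08 (SE; adjusted p = 0.00206), and Pgk1 (-0.51), Ldhb (-0.38) and Eno1 (-0.34) also held as lower with Aldoc. Without E15.5 replicate 1, 3 of the 17 were called lower and 1 higher, and without replicate 2, 4 lower and 1 higher.

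Of 17 cholesterol synthesis genes, 8 held as higher, beside 10.5% of all genes, and none was called lower. The median change was 0.29. Sqle, which makes squalene epoxide, was at 66.8 and 67.7 TPM at E15.5 and 112 and 102 TPM at E17 and changed by 0.66 ± 0.08 (SE; adjusted p = 0.000298). Its E17 libraries were close to each other and above E15.5. The late enzyme Dhcr7 (0.66) and the middle ones Fdps (0.73), Lss (0.42), Mvd (0.38) and Nsdhl (0.28) held too. Lbr, which also anchors chromatin at the nuclear envelope, was lowest (-0.35) and not called. Under quantile normalization 5 held, and without E15.5 replicate 1 or replicate 2, 4 or 3 were called. Of 32 lysosome and V-ATPase genes, 14 held as higher, beside 10.5% of all genes, and none was called lower. Those that held included the glucosidase Gaa (0.77), the pump subunits Atp6v0a1, at 36.6 and 33.9 TPM at E15.5 and 71.6 and 50.5 TPM at E17 (0.76 ± 0.15 SE, adjusted p = 0.0057), and Atp6v1g2 (0.65), the sphingolipid activator precursor Psap (0.58) and the protease Ctsd (0.36). The lowest was Atp6v1h, at -0.23, and without E15.5 replicate 1 or replicate 2 the count of calls was 6 or 4.

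Of 30 hnRNP genes, whose proteins coat new transcripts, 18 were called lower and 15 held, beside 8.50% of all genes that held as lower. The median change was -0.34 (-0.37 with replicate 1 alone and -0.31 with replicate 2 alone). Hnrnpk was at 667 and 709.8 TPM at E15.5 and 423 and 466 TPM at E17 and changed by -0.63 ± 0.11 (SE; adjusted p = 0.00213), and Hnrnpm was at 138 and 148 TPM at E15.5 and 97.6 and 97.8 TPM at E17 and changed by -0.54 ± 0.09 (SE; adjusted p = 0.00208), each lower in both E17 libraries. The splicing repressors Ptbp1 (-0.49) and Ptbp2 (-0.44) held. The highest of the list was Pcbp4, at 0.20 and not called. Of 56 spliceosome and SR genes, 20 were called lower, 1 higher, and 14 held as lower, beside 8.50% of all genes, such as Sf3a3 (-0.54), Snrpd1 (-0.49) and Srsf1, at 812 and 829 TPM at E15.5 and 559 and 639 TPM at E17 (-0.46 ± 0.10 SE, adjusted p = 0.00637). Leaving out E15.5 replicate 1 or 2 left 7 or 4 hnRNP genes and 4 or 3 spliceosome genes called lower.

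All 65 tested cytosolic ribosomal protein genes had changes below 0, with a median of -0.30, and 61 had with quantile normalization and 59 with the correction for length and GC content. Of the 65, 19 were called lower and 13 held, beside 10.6% and 8.50% of all genes. With E17 replicate 1 alone all 65 were called lower, with a median of -0.50, and with replicate 2 alone 14 were called lower and 4 higher, with a median of -0.08. After the correction, replicate 1 alone gave 42 called lower with a median of -0.22, and replicate 2 alone 21 with a median of -0.08. Together the 66 genes in the table took 8.67% and 8.76% of all TPM at E15.5, and 6.01% and 8.29% in E17 replicates 1 and 2. Rpl27 was at 703 and 688 TPM at E15.5 and 442 and 492 TPM at E17 and changed by -0.58 ± 0.09 (SE; adjusted p = 0.00142), with both E17 libraries well below E15.5. Rps14 was at 2395 and 2438 TPM at E15.5 and 1359 and 2041 TPM at E17 and changed by -0.54 ± 0.16 (SE; adjusted p = 0.0285), and its E17 libraries differed from each other by more than replicate 2 differed from E15.5. Rpl14 was the highest of the list, at 833 and 817 TPM at E15.5 and 671 and 988 TPM at E17, and was called in opposite directions with the 2 E17 libraries alone. The number that held was 4 with median-of-ratios scaling, 15 with the correction for length and GC content, 7 with the replicate number as a block, and 3 and 2 without E15.5 replicates 1 and 2. Ribosomal protein genes have many near-identical pseudogene copies, and the sources used here do not say how reads that fit several places were counted, so single values are uncertain.

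Of 41 proteasome genes, 18 were called lower and 11 held, beside 10.6% and 8.50% of all genes. The median was -0.35 from replicate 1 alone and -0.17 from replicate 2 alone. Corrected for length and GC content, these medians turned in order, at -0.12 and -0.17, with 10 genes that held. The ATPase subunit Psmc2 was at 60.5 and 60.9 TPM at E15.5 and 33.7 and 44.9 TPM at E17 and changed by -0.63 ± 0.15 (SE; adjusted p = 0.0106). Psmc3 (-0.45), Psma2 (-0.42) and Psmd13 (-0.37) also held, and the chaperone Psmg3 was the highest, at 0.06. Median-of-ratios scaling left 7 that held, and without E15.5 replicate 1 or replicate 2 the calls were 1 or 0. Of 64 genes of the respiratory chain and ATP synthase, 45 were called lower with replicate 1 alone, beside 17.3% of all genes, and 4 with replicate 2 alone, beside 17.5%. Beside 8.50% of all genes, 4 held as lower: Ndufs5 (-0.41), Sdha (-0.34), Atp5b (-0.30) and Ndufv1 (-0.29). Median-of-ratios scaling left 2 of these falls, and without E15.5 replicate 1 or replicate 2 the calls were 1 or 0. Atp5l held as higher, at 16.7 and 18.9 TPM at E15.5 and 24.1 and 26.999 TPM at E17, but was not called when E15.5 replicate 1 was left out. After the correction, replicate 1 alone gave 12 respiratory genes called lower and 16 higher, and 5 held as higher and 3 as lower.

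Of 56 translation factors, 10 held as lower and 3 as higher, beside 8.50% and 10.5% of all genes. The helicase Eif4a1 was at 858 and 902 TPM at E15.5 and 639 and 658 TPM at E17 and changed by -0.44 ± 0.08 (SE; adjusted p = 0.0029), and subunits of the scaffold complex eIF3 fell, Eif3d (-0.50), Eif3m (-0.41), Eif3c (-0.39) and Eif3b (-0.32). Eef1a2, the elongation factor of mature neurons, was at 64.3 and 64.1 TPM at E15.5 and 77.8 and 82.5 TPM at E17 and held as higher (0.32 ± 0.08 SE, adjusted p = 0.0189), with Eif1b (0.27) and Gspt2 (0.46). Without E15.5 replicate 1, and likewise without replicate 2, 1 fall and none of the rises was called, and under quantile normalization or median-of-ratios scaling 1 rise held. Pa2g4, whose protein Ebp1 binds ribosomes and has its own category in the deposited table, was at 162 and 157 TPM at E15.5 and 121 and 135 TPM at E17. Both E17 libraries lay below both E15.5 libraries, and its change was -0.32 ± 0.08 (SE; adjusted p = 0.0132), with -0.39 with replicate 1 alone and -0.25 with replicate 2 alone.

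Of 67 chromatin remodellers and modifiers, 3 held as higher and 4 as lower, beside 10.5% and 8.50% of all genes. With replicate 1 alone 22 were called higher and 5 lower, beside 35.0% and 17.3% of all genes, and with replicate 2 alone 3 were called higher and 20 lower, beside 12.2% and 17.5%. The medians were 0.14 with replicate 1 alone and -0.19 with replicate 2 alone, and did not stay on opposite sides of 0: they were -0.02 and -0.15 with quantile normalization and -0.00297 and -0.196 with the correction for length and GC content. The falls that held were Smarca5, an ISWI remodeller, at 39.9 and 40.8 TPM at E15.5 and 22.6 and 27.7 TPM at E17 (-0.67 ± 0.10 SE, adjusted p = 0.00146), the Polycomb subunits Ezh2 (-0.55) and Suz12 (-0.38), and Smarce1 of the BAF complex (-0.44). The rises were Chd5, a neuronal remodeller, at 12.9 and 14.03 TPM at E15.5 and 30.9 and 21.6 TPM at E17 (0.90 ± 0.15 SE, adjusted p = 0.00194), the methyltransferase Kmt2a (0.85) and the deacetylase Hdac10 (0.55). With the correction for length and GC content, 12 of the 67 held as lower, and with quantile normalization 7. Without E15.5 replicate 1, and likewise without replicate 2, 1 was called higher and 3 lower.

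A set of 50 genes (0.827%) was called in opposite directions with the 2 E17 libraries alone, 44 of them higher with replicate 1 and 6 lower, and none of these was called with both libraries together. Notch1, the receptor that keeps radial glia from differentiating, was at 10.7 and 10.02 TPM at E15.5 and 14.98 and 7.21 TPM at E17, so that the E15.5 libraries lay between the E17 ones. Its change was 0.49 with replicate 1 alone and -0.47 with replicate 2 alone and 0.01 ± 0.23 (SE; adjusted p = 0.974) with both. Dvl3, a relay of Wnt signals, was at 38.1 and 37.2 TPM at E15.5 and 50.9 and 28.5 TPM at E17, Cbl, a ubiquitin ligase of receptors, at 46.5 and 46.3 TPM at E15.5 and 61.3 and 35.1 TPM at E17, and Dpf3, a BAF subunit, at 5.56 and 5.48 TPM at E15.5 and 7.75 and 3.88 TPM at E17. In all 4, replicate 1 was above and replicate 2 below the E15.5 libraries. Rpl26, at 558 and 431 TPM at E15.5 and 233 and 649 TPM at E17, had the opposite order. With the correction for length and GC content, the change of Notch1 with replicate 1 alone was -0.02.

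The widest gap between the E17 libraries, among genes averaging at least 10 TPM, was in Lars2, the mitochondrial leucyl tRNA synthetase. It was at 33.2 and 166 TPM at E15.5 and 798 and 44.8 TPM at E17, and its E15.5 libraries also differed by several-fold; its change was 1.34 ± 1.005 (SE; adjusted p = 0.353) and was not called. Soga1 (18.2 and 18.6 TPM at E15.5 and 42.5 and 15.2 TPM at E17), Spen (9.20 and 9.004 TPM at E15.5 and 21.7 and 8.85 TPM at E17) and Klf12 (10.1 and 8.53 TPM at E15.5 and 19.4 and 8.27 TPM at E17) were higher in replicate 1 by more than 1 on the log2 scale, and Grin2b, described above, by a similar amount. None of Soga1, Spen and Klf12 was called with both libraries. On the other side, Rps21 was at 1268 and 1324 TPM at E15.5 and 857 and 1628 TPM at E17, Rpl38 at 1056 and 1148 TPM at E15.5 and 707 and 1294 TPM at E17, Rps15 at 1785 and 1912 TPM at E15.5 and 1185 and 2134 TPM at E17 and Uqcrh, a subunit of respiratory complex III, at 797 and 763 TPM at E15.5 and 470.1 and 799.96 TPM at E17. In each of these 4, replicate 1 was below both E15.5 libraries and replicate 2 above both, and none was called.

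The genes that held were then set beside the comparison of P0 with E14, which uses none of these 4 libraries except in the shared spread. At P0, 1574 of 6048 genes (26.0%) were called higher than at E14 and 2877 (47.6%) lower. Of the 637 genes that held as higher at E17, 473 (74.3%) were higher at P0 than at E14 and 75 (11.8%) lower. Of the 514 that held as lower, 489 (95.1%) were lower at P0 than at E14 and 1 was higher. Slc6a11 differed by 4.70 between E14 and P0, Gabra5 by 3.85, Atp1b1 by 3.58, Ccnb1 by -3.85 and Hmgb2 by -3.66. For these genes the E15.5 and E17 values were steps between an E14 mean and a P0 mean, of 23.9 and 298 TPM for Atp1b1 and of 835 and 65.4 TPM for Hmgb2.

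**Figure D5:**
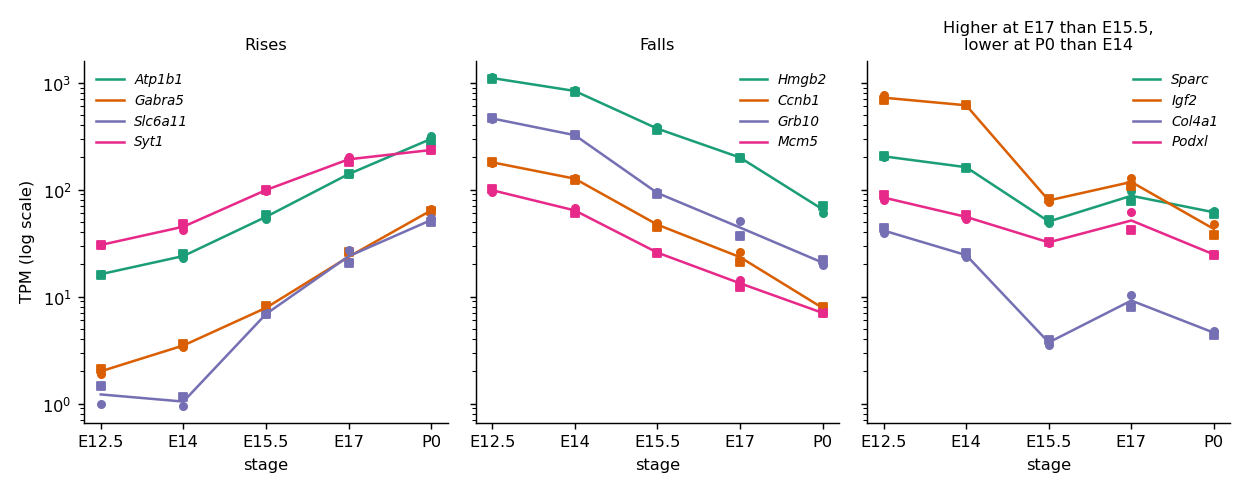
TPM on a log axis at the 5 stages for 12 genes, circles for replicate 1, squares for replicate 2 and a line through the means. Atp1b1 climbs from a mean of 23.9 at E14 to 298 at P0, Hmgb2 falls from 835 to 65.4, and Sparc, Igf2, Col4a1 and Podxl are higher at E17 than at E15.5 but lower at P0 than at E14.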

How the data were processed

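The authors deposited TPM per gene and library, 1 column each; per the submitters' processing notes, STAR, Subread and GRCm38.p5 were used, with the versions, annotation and gene length not given in the sources used here. Libraries were assigned to stages by the labels; 0 value columns lacked a sample. No number of reads is given, so no interval from counting is possible.

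Values were analysed as log2(TPM + 1), so folds of low genes are understated, leaving out 99 genes that averaged under 1 TPM over the 10 libraries. Limma 3.58.1 (R 4.3.3) with a variance trend was fitted with 1 mean per stage over all 10 libraries (5 residual degrees of freedom), with Benjamini-Hochberg adjustment over 6048 genes and a threshold of 0.05. The fits with 1 E17 library had 4. The fit was tested on simulated data in which a gene varied equally in every library. That test therefore does not cover the larger difference between the E17 libraries. P-values rest only on the spread between the 2 libraries of a stage, shared over the 5 stages and moderated across genes. At E17 the libraries differed more than at the other stages, so the shared spread tends to be too small there. The SEs and adjusted p of the main fit are lenient for that reason.

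The members and gene lists were chosen with earlier results of these data known. Named were the 12 largest rises and falls that held at a mean of at least 10 TPM without overlap between the stages (names beginning with Gm or LOC or ending in Rik left out), list members that held and the extremes of each list, the 5 largest differences between the E17 libraries each way, 5 genes called in opposite directions, and Pa2g4; Igf2bp1, Tubb3 and genes called but not held were added after their values were seen. Single genes of the ganglionic eminence list and some single genes of other lists are not reported here. Transcript lengths and GC content came from GENCODE M21 (GRCm38), chosen here, for 6047 genes. Alternatives were pseudocounts of 0.1 and 10 TPM, other filters, quantile and median-of-ratios scaling, a length and GC correction, other limma settings, a replicate block and leaving out each library.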

Additional observations from a re-analysis of the deposited data

How the results depend on the processing

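The main counts were 1514 genes called and 1151 that held. With only the 4 libraries of E15.5 and E17 in the fit, which leaves 2 residual degrees of freedom, 120 genes were called and 120 held. With array weights per library the counts were 758 and 742, and at an adjusted p under 0.01 they were 633 and 607. Leaving out 1 library at a time gave between 466 and 3164 calls: the lowest without E15.5 replicate 1 (466), then without E15.5 replicate 2 (515), and the highest without E17 replicate 2 (3164). The genes that held numbered between 466 and 1516 over the libraries of the other 4 stages, with the same 2 E15.5 libraries lowest. Pseudocounts, filters, scalings, the length and GC correction, robust moderation and no variance trend kept both counts within 1.5 times; the share of calls that were higher was 48.5% with quantile normalization and 57.5% with TPM as deposited. With a replicate block, 1411 genes were called and 1047 held. The numbers do not show pairing: deviations of same-numbered E15.5 and E17 libraries correlated at 0.06. Of the 24 genes with the largest changes, 17 kept their call with only the 4 libraries in the fit. All 24 kept it under each other alternative run. Of 327 single genes recomputed, 280 were weaker with only the 4 libraries and 109 with array weights. With only the 4 libraries, 7 of 43 mitosis, 4 of 44 replication and 4 of 44 presynaptic genes were called. No gene of the cytosolic ribosomal, proteasome, deep layer or upper layer lists was called in that fit. That every call held in it, and without either E15.5 library, is not support. A lone E17 library leaves the E17 difference out of the spread. Among the single genes recomputed under each alternative, 1 direction reversed: Notch1 with E17 replicate 1 alone went from 0.49 to -0.018 with the correction for transcript length and GC content. Medians of lists with replicate 1 alone also turned with quantile normalization and with that correction. The chromatin list went from 0.14 to -0.02 and -0.00297, and the 9 genes of developmental timing and RNA binding from 0.10 to -0.08 and -0.19. Quantile normalization moved the median of all genes with replicate 1 alone from 0.09 to -0.03. The causes were not tested. Depth is unknown, so genes near 1 TPM carry an error that cannot be stated here.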

Other observations

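A group of genes that held as higher at E17 ran against the wider span, being lower at P0 than at E14; there were 75 of them among 637, and the examples here were chosen after their values were seen. No share of any kind of gene among the 75 was computed. Lman1, a cargo receptor of the endoplasmic reticulum, was at 19.7 and 17.98 TPM at E15.5 and 31.5 and 25.03 TPM at E17 and changed by 0.55, while its P0 value differed from E14 by -0.87. Pdia3 (0.43), Canx (0.42), Derl1 (0.47), Txndc5 (0.46) and Ero1l (0.47) rose at the same step and were lower at P0 than at E14. Pdia3, a disulfide isomerase, had stage means of 169, 96.1, 130.01 and 96.2 TPM from E14 to P0.

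Sparc, a secreted matrix protein, had stage means of 162, 50.3, 87.6 and 61.4 TPM from E14 to P0, and Igf2, a growth factor of meninges and vessels, 614, 79.2, 118 and 42.8 TPM. Podxl, a sialomucin of vessels and neurons, was at 31.6 and 32.7 TPM at E15.5 and 61.2 and 41.6 TPM at E17. The summed vascular markers were likewise higher at E17 than at E15.5 and lower at P0 than at E14. They were at 68.3 and 73.05 TPM at E14, 12.47 and 12.51 at E15.5, 33.1 and 24.3 at E17 and 16.6 and 13.6 at P0. Meningeal markers summed to 243 and 226 TPM at E14 against 20.03 and 17.8 at P0. For choroid plexus the sums were 1584 and 1681 against 73.5 and 52.2 TPM, and for erythroid cells 2060 and 1968 against 109 and 101 TPM. Sums for some other sets, such as hippocampus and microglia, were higher at P0. The part of any of these tissues in these values was not tested. Cox17, a copper chaperone of the respiratory chain, was at 9.69 and 10.9 TPM at E15.5 and 27.6 and 17.3 TPM at E17 and changed by 1.02 ± 0.18 (SE; adjusted p = 0.00251).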
